A study of Mus musculus with 2 samples.

Results

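Transcripts of 7 genes of the MHC class II pathway, which shows peptides to CD4+ T cells, were followed in mouse liver: H2-Aa, H2-Ab1, H2-Eb1, Cd74, H2-DMa, H2-DMb1 and Ciita. They were chosen by name, as 7 of the 32287 features of the deposited matrices, and all 7 were found once in the feature list. Both groups were wild-type C57BL/6J mice that were given an adeno-associated virus (AAV) at 4 weeks of age, labelled scramble (the control vector) or shBicd2 (a vector named for Bicd2). After 3 more weeks both groups were injected into a vein with 15 mg/kg of the plant lectin concanavalin A, which stimulates T cells and inflames the liver, and livers were taken after 6 hours. Each group is 1 library of single barcodes with 3' tags, so neither a replicate nor an animal without concanavalin A stands beside any value. The number of animals pooled in a library was not given in the sources used here. The labels name no cell type that the AAV reached and no cell type that was sorted. Pairs of values below are in the order library labelled scramble, then library labelled shBicd2.

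The class II molecule on a cell surface is a pair of an α and a β chain. H2-Aa and H2-Ab1 encode the chains of I-A, and H2-Eb1 encodes the β chain of I-E, whose α chain is not made in C57BL/6 mice. Cd74 encodes the invariant chain, which fills the peptide groove and guides new molecules to endosomes, H2-DMa and H2-DMb1 encode the 2 chains of H2-DM, which exchanges the remnant of the invariant chain for a peptide, and Ciita encodes the transactivator that interferon gamma induces and that switches the other genes on. B cells, dendritic cells and macrophages hold these transcripts at rest; in a healthy liver Kupffer cells are the resident macrophages, sinusoidal endothelial cells can present antigen, and hepatocytes are poor in class II.

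The 5 class II genes of chromosome 17 lie in the mouse MHC (GRCm38, gene bounds from GENCODE M21). H2-DMa (ENSMUSG00000037649) spans chr17:34119541-34139101 and H2-DMb1 (ENSMUSG00000079547) spans chr17:34153072-34160230, both on the plus strand. H2-Ab1 (ENSMUSG00000073421) spans chr17:34257689-34269419 on the plus strand, H2-Aa (ENSMUSG00000036594) spans chr17:34282744-34287823 on the minus strand, and H2-Eb1 (ENSMUSG00000060586) spans chr17:34305867-34316674 on the plus strand. Ciita (ENSMUSG00000022504) is at chr16:10480059-10528418, plus strand, and Cd74 (ENSMUSG00000024610) lies outside the MHC. The H2-DMa gene overlaps Brd2 by 3094 bases and Ciita overlaps Dexi by 25888 bases, in both cases on opposite strands. The use of strand in counting was not given in the sources used here, so reads of these partners cannot be told apart with certainty. H2-DMb1 has a close copy in H2-DMb2, between which reads could be split.

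RefSeq promoter windows of 300 bases (GRCm38.p6, 250 before to 50 after a start site) were matched for 4 of the 7 genes. In class II promoters an X box and a Y box recruit the factors that bind Ciita. The letters GNAACT (X-like) followed on the same strand by TGATTGG (the Y box, an inverted CCAAT) 25 to 35 bases on, start to start, were searched on both strands; the letters were chosen after these windows had been seen. The pair was found in the windows of H2-Aa, H2-Eb1 and H2-DMb1, at spacings of 31, 30 and 31 bases, and in 43 of all 32851 windows (0.131%). GNAACT alone was in 42.8% of the windows and TGATTGG alone in 7.82%. Of the windows of 4 further class II genes, H2-DMb2, H2-Oa, H2-Ob and H2-Eb2, all 4 held TGATTGG. Only 1 of them, that of H2-Eb2, held the pair, so lack of the pair was not particular to H2-DMa. Neither of the 2 windows given for H2-DMa held TGATTGG, which says nothing of its other starts. The stretches below show this contrast in sequence. Any link between it and the counts of H2-DMa given below was not tested. The first is from chr17:34287857-34287924 (minus strand), the next from chr17:34305756-34305822 (plus strand) and the last from chr17:34122635-34122821 (plus strand), which is the part of the first H2-DMa window outside annotated exons, between the start of Brd2 and that of H2-DMa. Capitals mark the letters of the X-like box and of the Y box.
H2-Aa: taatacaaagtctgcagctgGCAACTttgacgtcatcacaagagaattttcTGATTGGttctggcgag
H2-Eb1: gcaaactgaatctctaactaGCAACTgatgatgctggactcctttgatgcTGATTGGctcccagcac
H2-DMa: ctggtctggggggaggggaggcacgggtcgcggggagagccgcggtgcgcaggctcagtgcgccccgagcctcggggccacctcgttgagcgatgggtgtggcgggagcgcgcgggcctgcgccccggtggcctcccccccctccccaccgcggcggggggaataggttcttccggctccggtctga
The start site of this H2-DMa window, 34122832, lies 198 bases from the start of Brd2, which runs the other way. The whole window held 29 CG steps and was 73.0% G or C, against 3 CG steps and 50.7% in the H2-Aa window and 0 and 48.0% in the H2-Eb1 window. GENCODE lists 8 H2-DMa transcripts, 3 of them protein coding, and 2 of those 3 start at 34135628 and 34135654, whose promoters were not searched here. The 3' tags counted here do not tell which start was used. A letter match is a description of the sequence and no measure of binding.

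The libraries held 2805 and 3038 barcodes with 5086306 and 5624055 unique molecular identifiers (UMIs, counted transcripts), and 2729 and 2941 barcodes with medians of 1502 and 1498 UMIs were kept. The libraries shared 3 barcode sequences. Bicd2, the target named in the labels, had 80 and 107 UMIs, or 16.4 and 19.7 counts per 1000000 UMIs (CPM). The ratio of the second library to the first, as for all ratios between libraries below, was 1.21 (0.895 to 1.63). Its transcript was therefore not lower in the library labelled shBicd2, so each ratio below compares 2 labelled libraries. Intervals are exact at 95%, except those of thinned shares, and cover counting error only.

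Barcodes were chosen by UMIs of marker genes. Ebf1, a transcription factor of B cells that stromal cells also express, picked out 27 and 34 barcodes. Clec4f, Cd5l or Vsig4, all markers of Kupffer cells, picked out 37 and 58. Ptprb or Stab2, a receptor phosphatase and a scavenger receptor of endothelial cells, picked out 33 and 40. Hepatocyte barcodes had at least 10 UMIs of a hepatocyte list of 13 genes and none of any other cell type's list, and numbered 2014 and 1577. Median depths were 1430 and 1780 UMIs in Ebf1 barcodes, 812 and 1084 in Kupffer-marker barcodes, 2073 and 2057 in endothelial-marker barcodes, and 1544 and 1465 in hepatocyte barcodes.

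These labels were checked against other markers, and they held only in part. Of the Ebf1 barcodes, 10 of 27 and 13 of 34 held a UMI of another of the 10 B cell markers, while 31 and 23 barcodes with another B cell marker lacked Ebf1. Kupffer-marker barcodes held UMIs of 10 and 8 of the 10 Kupffer markers, with Adgre1 and Csf1r at 0 in the library labelled shBicd2. UMIs of a dendritic cell list of 10 genes were in 9 of 37 and 12 of 58 of them (24.3% and 20.7%), from 2 and 3 of the 10 genes. Over all kept barcodes these shares were 2.9% and 3.09%. The part of dendritic cells in the class II level of Kupffer-marker barcodes was not tested. Endothelial-marker barcodes held 6 and 5 of 12 endothelial markers, with Tek, Flt4, Oit3 and Gpr182 at 0 in both. Hepatocyte transcripts were in nearly all barcodes: the hepatocyte list took 1.80% and 2.14% of UMIs in Ebf1 barcodes, 1.68% and 2.41% in Kupffer-marker barcodes, and 2.20% and 2.12% in endothelial-marker barcodes, against 2.35% and 2.42% in hepatocyte barcodes. The sets are therefore called by their marker genes, and in each of them a low number of cells of the named type cannot be told apart from little RNA per cell.

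Of these 4 sets, Ebf1 and Kupffer-marker barcodes held the densest class II transcripts in both libraries, and endothelial-marker barcodes stood near hepatocyte barcodes. Summed over the 7 genes, Ebf1 barcodes held 22 UMIs in the library labelled scramble and 17 in the one labelled shBicd2, which gave 489 CPM (307 to 741) and 244 CPM (142 to 391). Kupffer-marker barcodes held 18 and 42 UMIs, or 395 CPM (234 to 625) and 388.5 CPM (280 to 525). Endothelial-marker barcodes held 3 and 9 UMIs, or 37.0 CPM (7.63 to 108) and 93.5 CPM (42.7 to 177). In hepatocyte barcodes the sums were 195 and 186 UMIs, or 53.1 CPM (45.9 to 61.1) and 67.9 CPM (58.5 to 78.4). They are the level that the marker sets are set against, and how much of it is free RNA was not tested. Ebf1 barcodes were thus 9.21-fold (5.64 to 14.4) and 3.6-fold (2.05 to 5.92) over hepatocyte barcodes, and Kupffer-marker barcodes 7.44-fold (4.32 to 12.1) and 5.72-fold (3.99 to 8.03). For endothelial-marker barcodes the same quotients were 0.696 (0.142 to 2.06) and 1.38 (0.620 to 2.67), and both intervals include 1. Some of the further marker sets given below also lay above hepatocyte barcodes, so the excess was not particular to Ebf1 and Kupffer-marker barcodes. The order of Ebf1 and Kupffer-marker barcodes was not resolved, since their intervals overlap in both libraries.

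**Figure D1:**
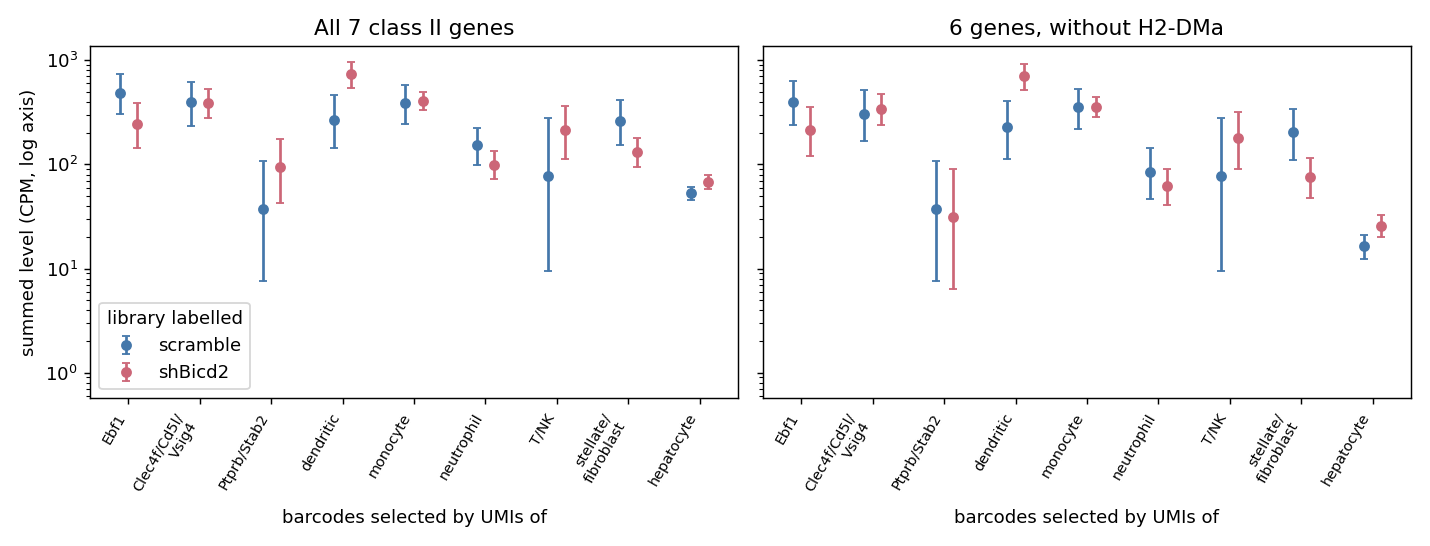
Summed class II level (CPM, log axis) in barcodes selected by marker genes, for all 7 genes (left) and without H2-DMa (right); points are the single library of each label and bars are exact 95% Poisson intervals. Ebf1 and Kupffer-marker barcodes sit above hepatocyte barcodes in both libraries, and the gap widens on the right, where hepatocyte barcodes drop to 16.4 and 25.9 CPM.

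Shares of barcodes with a class II UMI gave a similar picture, less clearly after thinning to a common depth. In Ebf1 barcodes 15 of 27 (55.6%, Clopper-Pearson 35.3 to 74.5) and 12 of 34 (35.3%, 19.8 to 53.5) held at least 1 class II UMI. In Kupffer-marker barcodes it was 12 of 37 (32.4%) and 27 of 58 (46.6%), and in endothelial-marker barcodes 3 of 33 (9.09%) and 7 of 40 (17.5%). In hepatocyte barcodes it was 161 of 2014 (7.99%) and 156 of 1577 (9.89%). Shares grow with depth, so the share expected if each barcode were thinned to 500 UMIs was also computed, which left out none. The thinned shares were 33.3% and 13.4% in Ebf1 barcodes, 25.5% and 29.5% in Kupffer-marker barcodes, 1.67% and 5.39% in endothelial-marker barcodes, and 2.35% and 3.20% in hepatocyte barcodes. In the library labelled shBicd2 the approximate thinned intervals of Ebf1 barcodes (4.188 to 29.45%) and hepatocyte barcodes (2.388 to 4.192%) overlapped slightly. Those of Ebf1 barcodes in the other library, and of Kupffer-marker barcodes in both, lay above the hepatocyte interval. The thinned intervals of endothelial-marker barcodes (approximate, 0.00306 to 13.6% and 0.738 to 17.5%) contain the hepatocyte share of their library, so a class II signal of their own was not detectable at this depth. Thinned to 1000 UMIs instead, Kupffer-marker barcodes were at 6.32% and 19.3%, beside 4.84% and 6.31% in hepatocyte barcodes. In the library labelled scramble only 14 Kupffer-marker barcodes were deep enough for this. Most positive barcodes held a single class II UMI, and only 5 and 3 Ebf1 barcodes and 4 and 11 Kupffer-marker barcodes held at least 2.

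The chain genes and Cd74 carried the contrast between barcode sets. H2-Aa, the I-A α chain, had 6 and 4 UMIs in Ebf1 barcodes, 0 and 7 in Kupffer-marker barcodes, 0 and 0 in endothelial-marker barcodes, and 8 and 9 in hepatocyte barcodes. Its level in Ebf1 barcodes was 61.2-fold (17.5 to 201) and 17.5-fold (3.94 to 62.7) over hepatocyte barcodes. The Kupffer-marker barcodes of the library labelled scramble, at 0 UMIs of H2-Aa, allow up to 65.9 CPM, close to the 64.7 CPM of the library labelled shBicd2, so these 2 values are not separated.

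H2-Ab1, the I-A β chain, had 0 and 1 UMIs in Ebf1 barcodes, although its partner H2-Aa had 6 and 4 there. In Kupffer-marker barcodes it had 1 and 5 UMIs, in endothelial-marker barcodes 0 and 0, and in hepatocyte barcodes 6 and 9. The 0 in Ebf1 barcodes of the library labelled scramble allows up to 66.7 CPM, which lies within the interval of H2-Aa in the same barcodes (49.0 to 290.5 CPM). H2-Eb1, the I-E β chain, had 3 and 1 UMIs in Ebf1 barcodes, 3 and 4 in Kupffer-marker barcodes, 0 and 1 in endothelial-marker barcodes, and 9 and 10 in hepatocyte barcodes. Relative to hepatocyte barcodes H2-Eb1 was 26.9-fold (4.68 to 108) and 10.1-fold (2.32 to 35.1) higher in Kupffer-marker barcodes.

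Cd74, the invariant chain, was the member with the most UMIs in Ebf1 and Kupffer-marker barcodes. It had 7 and 8 UMIs in Ebf1 barcodes, or 156 and 115 CPM, and 9 and 16 in Kupffer-marker barcodes, or 198 and 148 CPM. Endothelial-marker barcodes held 3 and 1, and hepatocyte barcodes held 34 and 40, or 9.27 and 14.6 CPM. Cd74 was therefore 16.8-fold (6.29 to 38.5) and 7.87-fold (3.18 to 17.1) over hepatocyte barcodes in Ebf1 barcodes, and 21.3-fold (9.0 to 45.4) and 10.1-fold (5.30 to 18.5) in Kupffer-marker barcodes. In each of these cases the interval lies above 1.

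H2-DMa, the α chain of the peptide exchanger, made up most of the class II UMIs in hepatocyte barcodes and was not resolved from that level in the marker sets. It had 135 and 115 UMIs in hepatocyte barcodes (36.8 and 42.0 CPM), which is 69.2% (62.2 to 75.6) and 61.8% (54.4 to 68.8) of all class II UMIs there. Ebf1 barcodes held 4 and 2 H2-DMa UMIs, Kupffer-marker barcodes 4 and 5, and endothelial-marker barcodes 0 and 6. Relative to hepatocyte barcodes H2-DMa was 2.42-fold (0.650 to 6.34) and 0.684-fold (0.0819 to 2.53) in Ebf1 barcodes and 2.39-fold (0.642 to 6.26) and 1.10-fold (0.351 to 2.65) in Kupffer-marker barcodes, and all 4 intervals include 1. Of the 9 class II UMIs in endothelial-marker barcodes of the library labelled shBicd2, 6 were H2-DMa, and without it both libraries held 3.

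**Figure D2:**
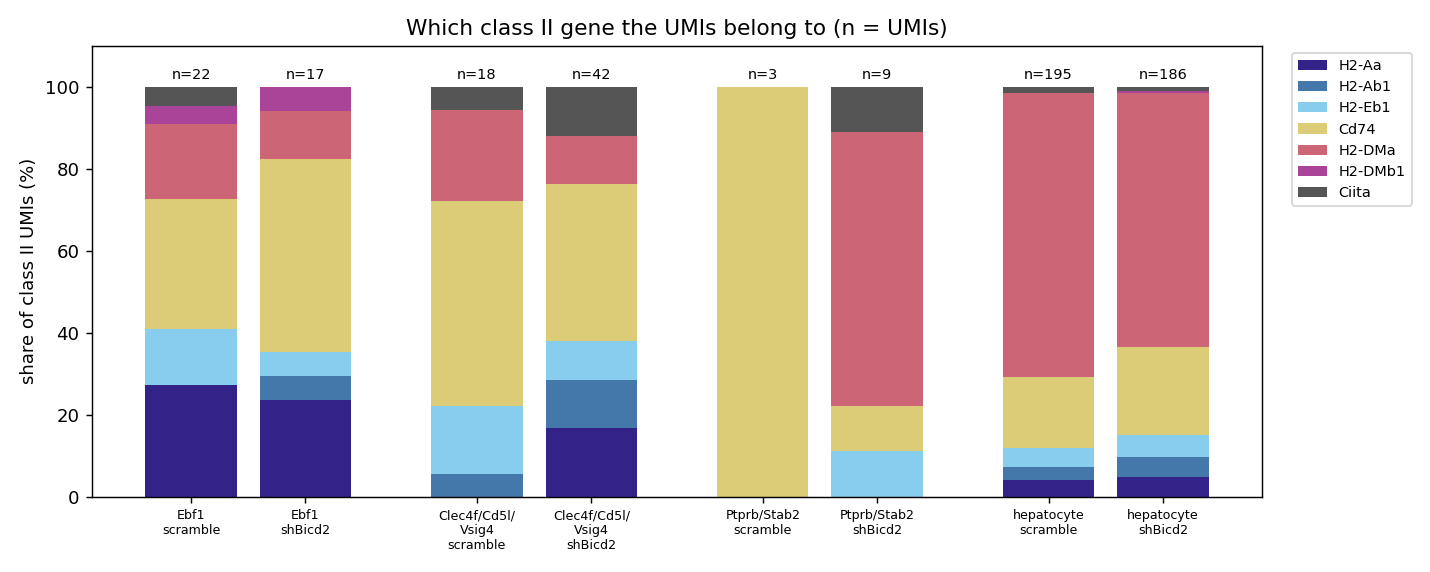
Share of class II UMIs (%) that belongs to each of the 7 genes, stacked per barcode set and library, with the number of UMIs above each bar. H2-DMa (red) takes 69.2% and 61.8% in hepatocyte barcodes and 11.8% to 22.2% in Ebf1 and Kupffer-marker barcodes, while the endothelial-marker bars rest on 3 and 9 UMIs.

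The quotient of H2-DMa to Cd74 put this difference in 1 number, and it cancels any factor that is common to both genes within a library. It was 3.97 (2.71 to 5.97) and 2.88 (1.99 to 4.23) in hepatocyte barcodes, against 0.50 (0.185 to 1.24) and 0.292 (0.106 to 0.698) in barcodes of the Ebf1 or Kupffer-marker sets, pooled. These intervals do not overlap in either library. The quotient of the 3 chain genes to Cd74 did not separate the same sets: it was 0.676 (0.381 to 1.18) and 0.700 (0.416 to 1.16) in hepatocyte barcodes, and 0.812 (0.360 to 1.80) and 0.917 (0.490 to 1.71) in the others. Relative to Cd74, then, H2-DMa differed between these sets beyond counting error, and the chain genes did not.

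Among hepatocyte barcodes, H2-DMa also followed depth differently from the other members. In barcodes at or under the median UMI count its level was 22.9 CPM (14.7 to 34.1) and 20.9 CPM (12 to 34), and in those over the median it was 42.3 CPM (34.8 to 51.0) and 50.1 CPM (40.7 to 61.0). In both libraries the intervals of shallow and deep barcodes do not overlap. The sum of the other 6 genes was 19.1 and 35.3 CPM in shallow barcodes and 15.3 and 22.3 CPM in deep ones, with overlapping intervals. Brd2, the opposite-strand neighbour of H2-DMa, was at 483 and 520 CPM in hepatocyte barcodes and at 464 and 461 CPM in barcodes of the Ebf1 or Kupffer-marker sets. Whether reads of Brd2 enter the H2-DMa count was not tested.

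**Figure D3:**
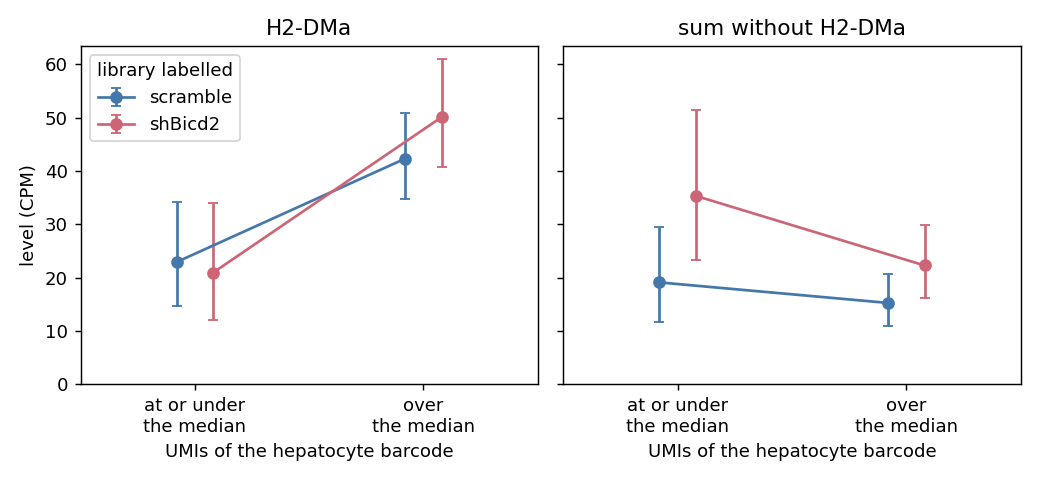
Level (CPM) of H2-DMa (left) and of the other 6 class II genes summed (right) in hepatocyte barcodes at or under and over the median UMI count of their library, with exact 95% Poisson intervals. H2-DMa goes from 22.9 and 20.9 CPM to 42.3 and 50.1 CPM, while the other genes are no higher in deep than in shallow barcodes.

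H2-DMb1, the partner chain of H2-DMa, was too rare to be compared between sets. It had 0 and 1 UMIs in hepatocyte barcodes, 1 and 1 in Ebf1 barcodes and 0 in Kupffer-marker and endothelial-marker barcodes of both libraries, and 4 and 12 over all kept barcodes. The 0 in hepatocyte barcodes of the library labelled scramble allows up to 0.817 CPM. Its copy H2-DMb2 had 1 and 4 UMIs over all kept barcodes, and how reads common to both were assigned is not known here.

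Ciita, the transactivator, was rare in every set: 1 and 0 UMIs in Ebf1 barcodes, 1 and 5 in Kupffer-marker barcodes, 0 and 1 in endothelial-marker barcodes, and 3 and 2 in hepatocyte barcodes. In the library labelled shBicd2 the 5 UMIs in Kupffer-marker barcodes came from 5 barcodes and gave 46.2 CPM, 63.3-fold (10.4 to 665) over hepatocyte barcodes. In the library labelled scramble the same quotient, from 1 UMI, was 26.9 (0.512 to 335). Over all kept barcodes Ciita had 25 and 14 UMIs.

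Between the libraries, class II transcripts over all kept barcodes were slightly higher in the library labelled shBicd2. The 7 genes held 413 and 564 UMIs, or 84.4 and 104 CPM, a ratio of 1.23 (1.08 to 1.40), and 1.15 (1.005 to 1.307) when the single barcode with the most class II UMIs was left out of the library labelled shBicd2. Marker lists of some other cells moved with it: the monocyte list was at 16.8 and 54.3 CPM (6 and 7 of 7 markers, F13a1 at 0 in the first), the neutrophil list at 65.0 and 361.8 CPM (7 and 8 of 8, Ly6g at 0 in the first) and the Kupffer list at 30.5 and 46.7 CPM (10 of 10 in both). The B cell list was at 32.5 and 35.1 CPM (10 of 10 in both). The dendritic list went the other way, at 22.5 and 19.6 CPM (8 and 7 of 10, Xcr1 and Cd209a at 0 in both). Hepatocyte barcodes held 75.0% and 50.6% of UMIs, and the part of these differences in the result was not tested. H2-Aa had 30 and 48 UMIs (ratio 1.445, 0.897 to 2.36), H2-Ab1 had 25 and 45 (1.62, 0.976 to 2.77) and H2-Eb1 had 31 and 37 (1.08, 0.651 to 1.80). Cd74 had 112 and 168 UMIs (1.35, 1.06 to 1.74), H2-DMa had 186 and 240 (1.17, 0.958 to 1.42), H2-DMb1 had 4 and 12 (2.71, 0.821 to 11.5) and Ciita had 25 and 14 (0.506, 0.243 to 1.01). Of single members only Cd74 had an interval that excludes 1, and Ciita was the only member with a ratio under 1. Both statements include the barcode with the most class II UMIs in the library labelled shBicd2. That barcode held 23 of the 168 Cd74 UMIs and 7 of the 37 H2-Eb1 UMIs, and ratios of single members without it were not computed. Past 1.5-fold there were 2 members higher and 1 lower, against 26.2% higher and 11.9% lower among the 12942 genes with at least 10 UMIs. The median log2 ratio was 0.44 over the 7 members and 0.15 over those 12942 genes, and H2-Eb1, at a log2 ratio of 0.10, stood below the median of all genes.

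Within the barcode sets the picture differed by set. In hepatocyte barcodes the summed ratio was 1.28 (1.04 to 1.57), and 1.59 (1.11 to 2.27) without H2-DMa. Cd74 was at 1.58 (0.973 to 2.57), H2-DMa at 1.14 (0.882 to 1.47), and the chain genes at 1.51 (H2-Aa), 2.01 (H2-Ab1) and 1.49 (H2-Eb1), each with an interval that includes 1. Of the 5 members with at least 10 UMIs in hepatocyte barcodes 3 were past 1.5-fold higher, where 26.6% of 11569 genes were. Scaling by TMM factors moved every log2 ratio in hepatocyte barcodes by -0.16 and gave 1.15 (0.933 to 1.41) for the sum, an interval that includes 1. The ratio of 1.59 without H2-DMa is from before this scaling, which lowers it too, and its scaled interval was not computed. In Kupffer-marker barcodes the summed ratio was 0.983 (0.554 to 1.81), so no difference was detectable at this depth, and in endothelial-marker barcodes it was 2.53 (0.631 to 14.5).

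In Ebf1 barcodes the summed ratio was 0.499 (0.249 to 0.984). This interval only just excludes 1, and it includes 1 without H2-DMa (0.538, 0.253 to 1.13), without the richest barcode of each library (0.493, 0.227 to 1.05), without barcodes that hold a stellate or fibroblast UMI (0.566, 0.278 to 1.13) and with at least 2 Ebf1 UMIs (0.488, 0.170 to 1.33). Both members with at least 10 UMIs there had ratios under 1, namely 0.738 (0.234 to 2.39) for Cd74 and 0.431 (0.0894 to 1.82) for H2-Aa, and the second is past 1.5-fold lower, as 25% of 2256 genes were. Restricted to barcodes with Ebf1 and another B cell marker, which are 10 and 13, the levels were 1043 and 262 CPM and the ratio 0.251 (0.0848 to 0.677). Other cell types' markers moved beside it: stellate and fibroblast UMIs were in 0 and 4 Ebf1 barcodes (0 and 8 UMIs, 0 and 4 of 10 markers) and neutrophil list UMIs numbered 5 and 47 (111 and 675 CPM, 4 and 7 of 8 markers), with Cxcr2 at 0 in both libraries. Their part in the result was not tested. In Kupffer-marker barcodes neutrophil list UMIs numbered 10 and 64 (220 and 592 CPM, 5 and 7 of 8 markers, with Ly6g at 0 in both), and their part in the levels there was not tested either.

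**Figure D4:**
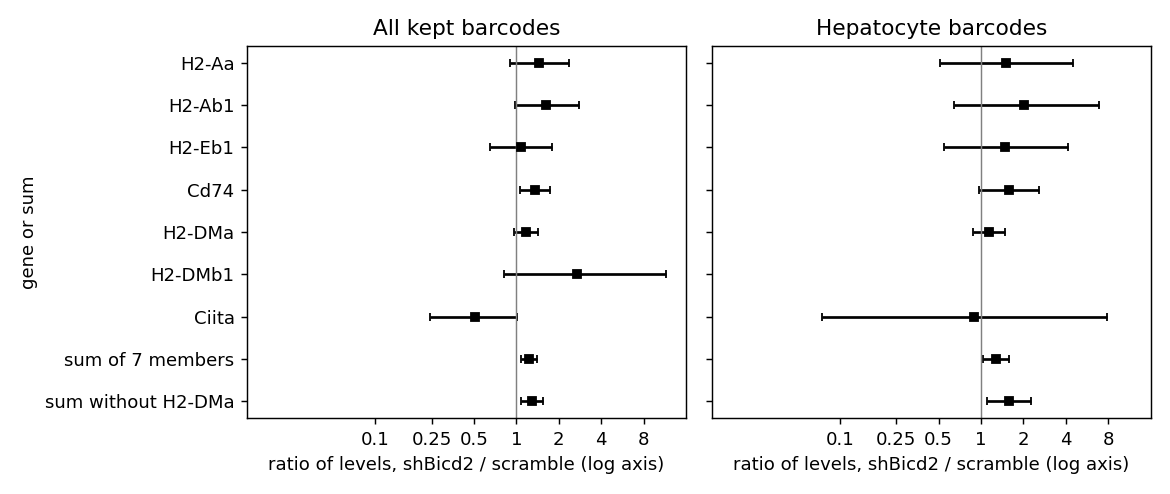
Ratio of levels, library labelled shBicd2 over library labelled scramble (log axis), for each gene and for the sums, over all kept barcodes (left) and in hepatocyte barcodes (right); bars are exact conditional 95% intervals, and H2-DMb1 has no ratio on the right, where the library labelled scramble had 0 UMIs. All points but Ciita lie above 1, and the intervals that exclude 1 are those of Cd74 (left) and of the sums. Points on the left include the single barcode richest in class II of the library labelled shBicd2.

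Kupffer-marker barcodes were heterogeneous in a way that bears on every level above. Class II UMIs were concentrated in their shallow barcodes: those under 1000 UMIs (23 and 26 barcodes) held 17 and 27 class II UMIs, or 1090 and 1577 CPM. Those with 1000 UMIs or more (14 and 32 barcodes) held 1 and 15, or 33.4 CPM (0.846 to 186) and 165 CPM (92.3 to 272). Likewise the few barcodes with at least 2 UMIs of Clec4f, Cd5l or Vsig4 (7 and 6) had 1092 and 1514 CPM, against 300 and 323 CPM in those with 1 UMI. In Ebf1 barcodes the shallow ones were at 1088 and 476 CPM and the deep ones at 372 and 221 CPM. The hepatocyte list took 0.346% and 1.25% of UMIs in the Kupffer-marker barcodes with at least 2 marker UMIs and 1.86% and 2.48% in those with 1, so it was lower where class II was higher, and its part in the result was not tested.

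Some partner genes of the pathway were denser in Kupffer-marker than in hepatocyte barcodes, and in Ebf1 barcodes they were rarely seen. Of the 12 measured genes for class II partners and processing, Cd86, a costimulatory ligand, had 20 and 7 UMIs in Kupffer-marker barcodes, or 439 and 64.7 CPM, against 1.36 and 1.46 CPM in hepatocyte barcodes. March1, a ubiquitin ligase that removes class II from the surface, had 7 and 9 UMIs there and 1 and 1 in all hepatocyte barcodes, and Lgmn, an endosomal protease, was 5.04-fold (2.56 to 9.01) and 1.96-fold (1.12 to 3.21) over hepatocyte barcodes. Ctsl, a lysosomal protease of many tissues, was not separated from hepatocyte barcodes in either library (0.859, 0.391 to 1.64, and 1.30, 0.976 to 1.71). Between the libraries, 4 of the 6 partner genes with at least 10 UMIs in Kupffer-marker barcodes were past 1.5-fold lower and 1 higher, where 29.5% and 30.2% of 2893 genes were. The same list over all kept barcodes had 4 of 8 past 1.5-fold higher and 2 lower, beside 26.2% and 11.9% of 12942 genes. In Ebf1 barcodes Cd86 had 1 and 1 UMIs and March1 had 0 in both libraries.

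Among 11 listed transcription factors of the class II pathway, Irf8, a factor of macrophages, dendritic cells and B cells, was the clearest in Kupffer-marker barcodes. It had 97 and 66 UMIs there, or 2131 and 610.5 CPM, which is 18.4-fold (14.6 to 22.9) and 5.29-fold (4.00 to 6.92) over hepatocyte barcodes, and its ratio between libraries was 0.286 (0.206 to 0.396). That interval does not overlap the one of the class II sum in Kupffer-marker barcodes (0.554 to 1.81). In the same barcodes the Kupffer list was at 1713 and 916 CPM (10 and 8 of 10 markers) and the hepatocyte list at 16760 and 24086 CPM (13 of 13 markers in both), and their part in the result was not tested. In hepatocyte barcodes Irf8 was at 116 and 115 CPM, with a ratio of 0.994 (0.857 to 1.15). In Ebf1 barcodes Irf8 had 15 and 14 UMIs, 2.87-fold (1.59 to 4.79) and 1.74-fold (0.942 to 2.97) over hepatocyte barcodes. Creb1, which binds the X2 box, was not separated between Kupffer-marker and hepatocyte barcodes (1.08, 0.293 to 2.80, and 0.916, 0.331 to 2.04). Rfxank, a subunit of the RFX complex on the X box, had 103 and 205 UMIs in hepatocyte barcodes, a ratio of 2.67 (2.09 to 3.41). In that set 2 of the 9 factors with at least 10 UMIs were past 1.5-fold higher, near the 26.6% of all 11569 genes, and none lower, beside 11.9%.

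Genes of interferon gamma signalling were measured in the same sets. Irf1, an early target of the pathway, was at 835 and 1397 CPM in Kupffer-marker barcodes, at 489 and 848 in Ebf1 barcodes and at 800.0 and 1189 in hepatocyte barcodes, so its quotients over the last were 1.04 and 1.18 (Kupffer-marker) and 0.612 and 0.713 (Ebf1). Socs1, a feedback inhibitor, was at 505 and 620 CPM, 445 and 532 CPM, and 750 and 608 CPM in the same sets. Between the libraries, Irf1 had a ratio of 1.49 (1.41 to 1.56) in hepatocyte barcodes and Socs1 one of 0.811 (0.763 to 0.8625). Of the 8 genes of this list with at least 10 UMIs there, 4 had ratios over 1 and 4 under 1. Past 1.5-fold, 2 were higher and 0 lower, beside 26.6% and 11.9% of 11569 genes. Ifng itself had 6 and 12 UMIs over all kept barcodes. On the class I side H2-K1, a class I heavy chain, was at 2394 and 3700 CPM in Kupffer-marker barcodes and at 2365 and 3692 CPM in hepatocyte barcodes, quotients of 1.013 and 1.002. H2-D1, another class I heavy chain, was 2.05-fold (1.59 to 2.62) and 1.39-fold (1.18 to 1.63) over hepatocyte barcodes there. B2m, the light chain of class I, was at 1.33 (0.843 to 2.01) and 1.74 (1.36 to 2.19), and Tap1, a peptide transporter, at 1.04 (0.473 to 1.98) and 1.46 (0.998 to 2.06). The class II sum gave 7.44 and 5.72.

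Class II transcripts were also followed to where most of them lay. Hepatocyte barcodes held 47.2% and 33.0% of class II UMIs, with 75.0% and 50.6% of all UMIs. Ebf1, Kupffer-marker and endothelial-marker barcodes held 5.33%, 4.36% and 0.726% in the library labelled scramble and 3.01%, 7.45% and 1.60% in the library labelled shBicd2. Barcodes in none of the 9 marker sets, of which 5 more were made for dendritic cells, monocytes, neutrophils, T or NK cells and stellate cells or fibroblasts, held 24.9% and 25.9%, at 143.5 and 93.8 CPM. Over hepatocyte barcodes, the class II sum was 4.925-fold (2.86 to 7.99) and 1.945-fold (1.335 to 2.77) in the stellate or fibroblast set. These quotients rest in part on few barcodes. In the library labelled scramble 1 barcode held 9 of the 18 class II UMIs of this set. In the library labelled shBicd2 2 barcodes held 7 each of its 38. In the neutrophil set the class II sum over hepatocyte barcodes was 2.87-fold (1.81 to 4.36) and 1.47-fold (1.03 to 2.065). In the T or NK set it was 1.47-fold (0.1765 to 5.37) and 3.13-fold (1.63 to 5.48). In the library labelled shBicd2, 1 barcode of 18889 UMIs held 7 of the 13 class II UMIs of the T or NK set. The same barcode was in the neutrophil set and in the stellate or fibroblast set. Quotients without it were not computed. In barcodes with monocyte markers (Ccr2, Ly6c2 or Chil3; 32 and 132 barcodes) there were 24 and 101 class II UMIs, or 385 and 411 CPM, and 385 and 249.5 CPM without the barcode richest in class II of the library labelled shBicd2.

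A few barcodes held much of the class II signal. At least 5 class II UMIs were found in 7 and 8 barcodes, which had 52 and 88 class II UMIs, or 12.6% and 15.6% of the total in 0.147% and 0.487% of all UMIs. The richest, in the library labelled shBicd2, had 40 class II UMIs among 1237: 23 of Cd74, 7 of H2-Eb1, 5 of H2-Aa, 2 of H2-Ab1 and 1 each of H2-DMa, H2-DMb1 and Ciita. It belonged to the dendritic and monocyte sets, held 3 UMIs of the hepatocyte list and had 17.5% mitochondrial UMIs. With it, dendritic-marker barcodes (25 and 32) held 269 and 731 CPM and their ratio was 2.72 (1.45 to 5.45). Without it the levels were 269 and 149 CPM, and the ratio was 0.553 (0.217 to 1.37). The monocyte-marker ratio went from 1.07 (0.678 to 1.74) to 0.648 (0.398 to 1.09). None of the 15 barcodes with at least 5 class II UMIs was in the Ebf1, Kupffer-marker or endothelial-marker sets. Other genes of the Kupffer list were present, however. In the library labelled shBicd2, the barcode with 11 class II UMIs, which was in the monocyte set, held 7 UMIs of that list. Those with 5 class II UMIs there, which were in none of the 9 sets, held 6, 0 and 4. No other of the 15 held more than 2.

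The richest barcode of the library labelled scramble held 15 class II UMIs among 662: 5 of H2-Eb1, 4 of Cd74, 3 of H2-Aa, 2 of Ciita and 1 of H2-Ab1. It was in none of the 9 sets, and also held 6 UMIs of Cd40, a receptor through which T cells activate presenting cells, and 5 of Il4i1, an enzyme of activated presenting cells. Another held 5 UMIs of Ciita, 3 of H2-Eb1 and 9 of Irf8 among 514, and it too was in none of the sets. These 2 barcodes hold 7 of the 25 Ciita UMIs of that library.

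The genes whose levels were most like the summed class II level were ranked over 18 points, the 9 marker sets of both libraries, by Pearson's r of log2(CPM + 10) among 9826 genes. The points share libraries and some barcodes, and several rest on few UMIs, so the ranking is a description. Sirpa, a receptor of myeloid cells that reads a self signal, led with r = 0.82, followed by Larp7 (0.79), Ifi30 (0.77), Zfp579 (0.76), Pgs1 (0.73), Med15 (0.72), Srgn (0.72) and Nrros (0.72). Ifi30 encodes a thiol reductase that prepares antigens for class II. Among the members themselves, r with the sum that includes them was 0.90 for Cd74, 0.88 for H2-Eb1, 0.70 for H2-Aa, 0.66 for H2-Ab1, 0.61 for H2-DMb1, 0.49 for H2-DMa and 0.47 for Ciita.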

How the data were processed

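UMI counts per gene and barcode were deposited by the authors without normalization. Per the labels' protocols, the 10x 3' chemistry was v3.1. Per the file headers, Cell Ranger 6.1.2 wrote the matrices; per the submitters' processing notes, the tools were Cell Ranger 6.0.1 and Seurat 4.0.3 and the build mm10. The smallest barcode held 500 UMIs in each library. Barcodes under 200 genes or over 25% mitochondrial UMIs were left out, and the highest Scrublet scores (scanpy 1.11.5; 0.8% per 1000 barcodes, 62 and 73 barcodes) were removed as doublets. Any removal of doublets before deposit was not given in the sources used here.

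Counts were summed per barcode set and library and divided by the set's UMIs (CPM), with pandas 2.3.3, numpy 2.4.6 and scipy 1.17.1 (Python 3.11.15). A barcode could be in several marker sets. Intervals at 95% were exact Poisson for CPM, Clopper-Pearson for shares and exact conditional binomial for ratios, and a count of 0 allows 3 counts over the set. Thinned shares are expected values. The Clopper-Pearson formula was applied to the expected number of barcodes, which need not be whole, so those intervals are approximate. Log2 ratios had 0.5 count added. No p-value was computed, since barcodes are not replicates. The ratio interval and likeness calculations were tested on simulated data. TMM factors came from edgeR 4.0.16 in R 4.3.3, as an alternative. Named were the 7 members, up to 4 genes of each pathway list with the most UMIs in a set, and the 8 genes most like the class II sum; Cd86 and March1 in Ebf1 barcodes, Rfxank beside the factors, H2-DMb2, Brd2, Ifng, Cd40 and Il4i1 were named in addition after their values were seen. H2-Ea and H2-Ea-ps, which were on the lists, were not analysed here. One gene of the interferon gamma list that the naming rule covers is not reported here. The members, marker sets and lists were chosen with earlier results of these data known. Alternatives changed the marker threshold, barcode filters, scaling, summing, the B cell and hepatocyte definitions and the thinning depth.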

Additional observations from a re-analysis of the deposited data

How the results depend on the processing

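Of 111 alternative values of the summed level and of the shares, 88 stayed within the interval of the main value and 23 did not. Among ratios between the libraries the 1 that did not was hepatocyte barcodes without H2-DMa (1.59). No ratio whose interval excluded 1 changed direction, but 4 whose interval includes 1 crossed it: Kupffer-marker barcodes went from 0.983 to between 1.001 and 1.39 in 9 alternatives, endothelial-marker barcodes from 2.53 to 0.843 without H2-DMa, and endothelial-marker over hepatocyte barcodes from 0.696 to 2.26 without H2-DMa and from 1.38 to 0.988 without the richest barcode. The hepatocyte ratio lost its distance from 1 with TMM factors (1.15, 0.933 to 1.41). Over hepatocyte barcodes, leaving out H2-DMa gave 24.5 and 8.31 in Ebf1 barcodes, 18.8 and 13.2 in Kupffer-marker barcodes and 2.26 in endothelial-marker barcodes of the library labelled scramble; the smaller hepatocyte level sets this. Averaging barcodes' own CPM gave 15.1 (Ebf1, library labelled scramble) and 15.2 and 13.5 (Kupffer-marker). Requiring 2 Kupffer-marker UMIs gave 20.6 and 22.3, Ebf1 with another B cell marker gave 19.6 in the library labelled scramble, and at least 2 UMIs over the 10 B cell markers gave 16.7 and 6.53; the cause was not tested. Without thinning, shares were 55.6% and 35.3% (Ebf1), 46.6% (Kupffer-marker, library labelled shBicd2), 17.5% (endothelial-marker, same library) and 7.99% and 9.89% (hepatocyte). Thinned to 1000 UMIs they were 4.84% and 6.31% in hepatocyte barcodes and 6.32% in Kupffer-marker barcodes of the library labelled scramble, where 23 of 37 barcodes were too shallow to enter. With at least 2 endothelial marker UMIs 2 and 0 barcodes were left, which gave no quotient. The settings without H2-DMa and with 2 UMIs over the B cell markers were chosen after seeing the data. No paired analysis was possible because each group has 1 library. With 3 to 42 class II UMIs per marker set, single members outside hepatocyte barcodes are known only to within several-fold.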
